A study of Homo sapiens with 6 samples.

Results

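Potassium channel genes were compared between 2 human melanoma cell lines. They were taken as every row of the authors' gene-named table whose symbol starts with KCN. This gave 97 rows for 93 genes, out of 17766 genes in all, and for the 4 genes with 2 rows the brighter row was kept. The line WM115 was established from a primary tumour and the line WM266-4 from a metastasis, both in skin. The culture medium of both was DMEM plus 10% foetal bovine serum, and the labels name no treatment and no engineered allele for either. Each line was hybridised to 3 Affymetrix gene arrays, one for each repeat. Repeat 1 combined a miRNeasy micro extraction with the Human Gene 1.0 ST array, while repeats 2 and 3 combined a GeneAll Hybrid-R miRNA extraction with the Human Gene 2.1 ST array. Each group is 1 established line, so its 3 arrays measure how repeats of that line vary, not how primary tumours or metastases vary.

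Potassium channels let potassium ions leave or enter cells and so set the membrane voltage. The family has voltage-gated channels, built from pore-forming alpha subunits with accessory subunits, channels opened by intracellular calcium or sodium, inward rectifiers, and two-pore-domain channels that carry the leak current. In cells that do not fire action potentials, such as melanocytes and melanoma cells, they hold the resting voltage that drives calcium entry, and calcium-activated and ether-a-go-go channels have been studied in melanoma cell growth and migration.

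Levels below are log2 signals as deposited, and a difference is WM266-4 minus WM115 in log2 units, so 1 unit is a doubling of signal. A gene was tested if its mean over the 6 arrays reached 3.97, the 30th percentile of all genes, and was called at an adjusted p under 0.05 in one limma fit over all genes tested. Errors of levels are SDs over 3 arrays, errors of differences are standard errors of that fit. "Rose" and "fell" are used for genes called higher and lower in WM266-4.

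Of the 93 genes, 34 were tested, and 4 rose, 8 fell and 22 were not called. The 12 calls are 35.3% of the genes tested, against 26.9% of all 12436 genes tested. Split by direction, 11.8% of the tested potassium channel genes rose, against 13.6% of all tested genes, and 23.5% fell, against 13.3%. The median difference was -0.07, beside 0.01 for all tested genes, and the median absolute difference was 0.24, beside 0.25. An absolute difference of at least 1 was reached by 8 of the 34, or 23.5%, beside 8.44% of all tested genes. The level for testing applied to the mean of both lines, so genes bright in 1 line could pass. Of these 8, KCNMA1, KCNMB4 and KCNS3 had WM266-4 means (3.33, 3.69 and 3.86) under that level. KCNQ5 and KCNG4 had WM115 means (3.70 and 3.85) under it. Both means lay above it for KCNN3, KCNA2 and KCNC4. So this excess does not show that the family differed more. With no such level 18.3% of the 93 genes were called, against 19.4% of all genes. The 3 arrays of one line lay wholly above or below those of the other for 20 of the 34, beside 51.7% of all tested genes. Most tested potassium channel genes thus differed about as little as other genes, and a few lay far out, which the level for testing favoured. The 8 that fell became 4 without WM266-4 replicate 2 and 5 without WM266-4 replicate 3, WM115 replicate 2 or WM115 replicate 3. The 4 that rose became 2 without WM115 replicate 2 or WM266-4 replicate 2. Without WM115 replicate 1 or WM266-4 replicate 1, 9 fell and 5 rose. The share of all genes called in these fits is not given here.

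**Figure D1:**
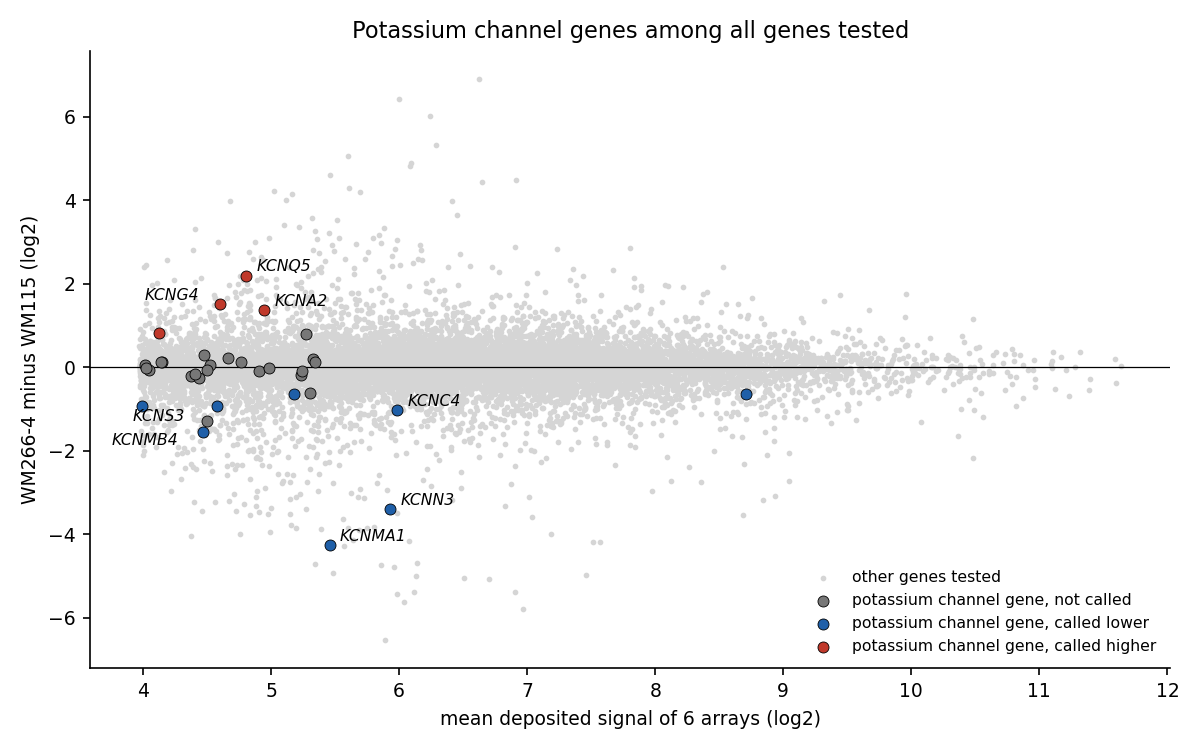
Each point is a gene tested, with its mean deposited signal over 6 arrays (log2) on the horizontal axis and WM266-4 minus WM115 (log2) on the vertical axis. The 34 potassium channel genes are drawn in colour or dark grey over the other tested genes, and KCNMA1 at -4.26 and KCNN3 at -3.40 lie farthest from 0 among them.

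The promoter windows of KCNMA1 and KCNN3, which fell most, and of KCNQ5, which rose most, are shown because the results turn on these genes. They are RefSeq sequences of GRCh38.p14, from 250 bases before an annotated start to 50 after it, read 5′ to 3′ on the gene's strand. KCNMA1 has 2 windows in that table and KCNN3 has 3. For each, the most upstream window is shown and, below it, the one that holds an AP-1 match. The motifs were chosen with results of these data known. Capitals mark matches to the AP-1 site (TGACTCA or TGAGTCA) and to the GC box (GGGCGG or CCGCCC), searched on both strands, with overlapping matches joined.
KCNMA1, upstream start, minus strand, chr10:77637759-77638058: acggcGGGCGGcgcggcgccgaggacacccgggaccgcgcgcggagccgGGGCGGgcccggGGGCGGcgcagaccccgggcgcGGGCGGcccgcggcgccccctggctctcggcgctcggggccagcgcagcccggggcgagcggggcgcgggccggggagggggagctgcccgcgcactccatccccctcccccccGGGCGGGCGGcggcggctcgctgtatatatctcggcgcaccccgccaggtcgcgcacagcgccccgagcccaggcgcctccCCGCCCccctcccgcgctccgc
KCNMA1, inner start, minus strand, chr10:77350712-77351011: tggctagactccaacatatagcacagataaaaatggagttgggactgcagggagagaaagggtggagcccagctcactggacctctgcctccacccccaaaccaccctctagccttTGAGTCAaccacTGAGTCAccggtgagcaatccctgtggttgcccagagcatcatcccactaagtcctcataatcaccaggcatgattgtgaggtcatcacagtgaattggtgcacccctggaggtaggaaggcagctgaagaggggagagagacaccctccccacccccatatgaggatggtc
KCNN3, upstream start, minus strand, chr1:154870232-154870531: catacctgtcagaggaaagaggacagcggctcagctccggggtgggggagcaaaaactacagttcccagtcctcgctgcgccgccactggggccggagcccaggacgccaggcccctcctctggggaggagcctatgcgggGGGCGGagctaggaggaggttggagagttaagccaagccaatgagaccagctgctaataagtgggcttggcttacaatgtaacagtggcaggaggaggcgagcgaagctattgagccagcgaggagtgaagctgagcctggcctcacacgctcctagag
KCNN3, innermost start, minus strand, chr1:154859827-154860126: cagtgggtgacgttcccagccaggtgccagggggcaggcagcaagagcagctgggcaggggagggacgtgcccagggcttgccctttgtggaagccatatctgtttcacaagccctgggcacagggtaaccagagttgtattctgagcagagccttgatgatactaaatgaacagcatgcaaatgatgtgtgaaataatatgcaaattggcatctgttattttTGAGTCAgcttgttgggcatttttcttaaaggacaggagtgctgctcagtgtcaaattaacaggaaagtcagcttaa
KCNQ5, plus strand, chr6:72621814-72622113: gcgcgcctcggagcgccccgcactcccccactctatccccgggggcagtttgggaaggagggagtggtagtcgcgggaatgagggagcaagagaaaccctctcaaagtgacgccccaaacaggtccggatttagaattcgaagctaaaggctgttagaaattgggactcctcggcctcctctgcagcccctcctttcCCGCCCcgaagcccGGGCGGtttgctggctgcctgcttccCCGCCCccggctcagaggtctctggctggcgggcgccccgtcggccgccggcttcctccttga

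The upstream KCNMA1 window was 85.7% G and C and held 7 GC box matches and no AP-1 match. The inner KCNMA1 window was 54.7% G and C and held 2 AP-1 matches. The innermost KCNN3 window was 49.0% G and C and held 1 AP-1 match. The KCNQ5 window was 65.7% G and C with 3 GC box matches and no AP-1 match. Of all 35116 windows in the table, 4.95% held an AP-1 match and 45.0% a GC box. Of the 108 windows of potassium channel genes, 4.63% and 50.9% did, so AP-1 matches were about as common there as elsewhere. Windows were found for 70 of the 93 genes and for 9 of the 12 called ones. No AP-1 match was found for KCNC4, KCNK2, KCNJ2 and KCNN4, which also fell, or for KCNA2 and KCNG4, which rose. The arrays do not show which start the cells used, and a match is a run of letters, not a measured site.

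Calcium-activated channels held the largest decreases. Of the 7 genes of calcium- or sodium-activated pore subunits, 4 were tested, and KCNMA1, KCNN3 and KCNN4 fell while KCNT1 was not called. That is 75% of only 4 genes called, beside 26.9% of all tested genes, and KCNMA1 reached the level for testing through WM115. KCNN1, KCNN2 and KCNT2 were too dim to be tested and differed by -0.09, -0.02 and -0.23. KCNMA1 (chr10:76869602-77637808) encodes the pore of the big-conductance BK channel, which opens on voltage and calcium together. Its signal was 7.74, 7.67 and 7.34 on the WM115 arrays of replicates 1, 2 and 3, and 3.27, 3.39 and 3.33 on those of WM266-4. Every WM115 array was above every WM266-4 array, and those of WM266-4 lay under the level required for testing. The means were 7.58 ± 0.21 and 3.33 ± 0.06 (SD, n = 3). The difference was -4.26 (SE 0.13, 95% interval -4.58 to -3.93, adjusted p = 3.3e-05). Since the WM266-4 arrays are at the level of dim genes, no fold is given for KCNMA1.

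KCNMB4 (chr12:70366290-70434292), the BK channel's beta-4 accessory subunit, fell as well. Its WM115 arrays read 5.42, 5.36 and 4.96 and its WM266-4 arrays 3.55, 3.71 and 3.82, with no overlap. The difference was -1.56 (SE 0.16, interval -1.94 to -1.17, adjusted p = 0.0021). The other BK beta subunits KCNMB1, KCNMB2 and KCNMB3 lay under the level for testing in the mean of the 6 arrays, with differences of -0.08, -0.06 and 0.11. So, of the BK genes with a KCN symbol, the pore and the beta-4 subunit were tested, and both fell. Both reached the level for testing through WM115, since their WM266-4 means of 3.33 and 3.69 lay under it. The filter thus favoured genes high in 1 line, and the 2 calls do not show a joint BK decrease.

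KCNN3 (chr1:154697455-154870281) encodes SK3, a small-conductance channel opened by calcium through calmodulin. It read 7.29, 7.83 and 7.77 in WM115 and 4.65, 3.98 and 4.06 in WM266-4. The groups did not overlap, and the first-repeat pair stood closer together than the later pairs. The difference was -3.40 (SE 0.23, interval -3.96 to -2.84, adjusted p = 0.00058), rank 43 among decreases. KCNN4 (chr19:43766533-43780973), the intermediate-conductance channel of the same family, fell far less. Its arrays read 8.92, 8.82 and 9.35 in WM115 and 8.51, 8.21 and 8.46 in WM266-4. The arrays of KCNN4 did not overlap, but the gap between the lowest WM115 and the highest WM266-4 array was narrow. The difference was -0.64 (SE 0.17, adjusted p = 0.039), and the call was lost without WM115 replicate 2 (adjusted p = 0.059), WM115 replicate 3 (0.081), WM266-4 replicate 2 (0.15) or WM266-4 replicate 3 (0.099). KCNN1 and KCNN2, the other SK genes, were too dim to be tested and differed by -0.09 and -0.02.

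**Figure D2:**
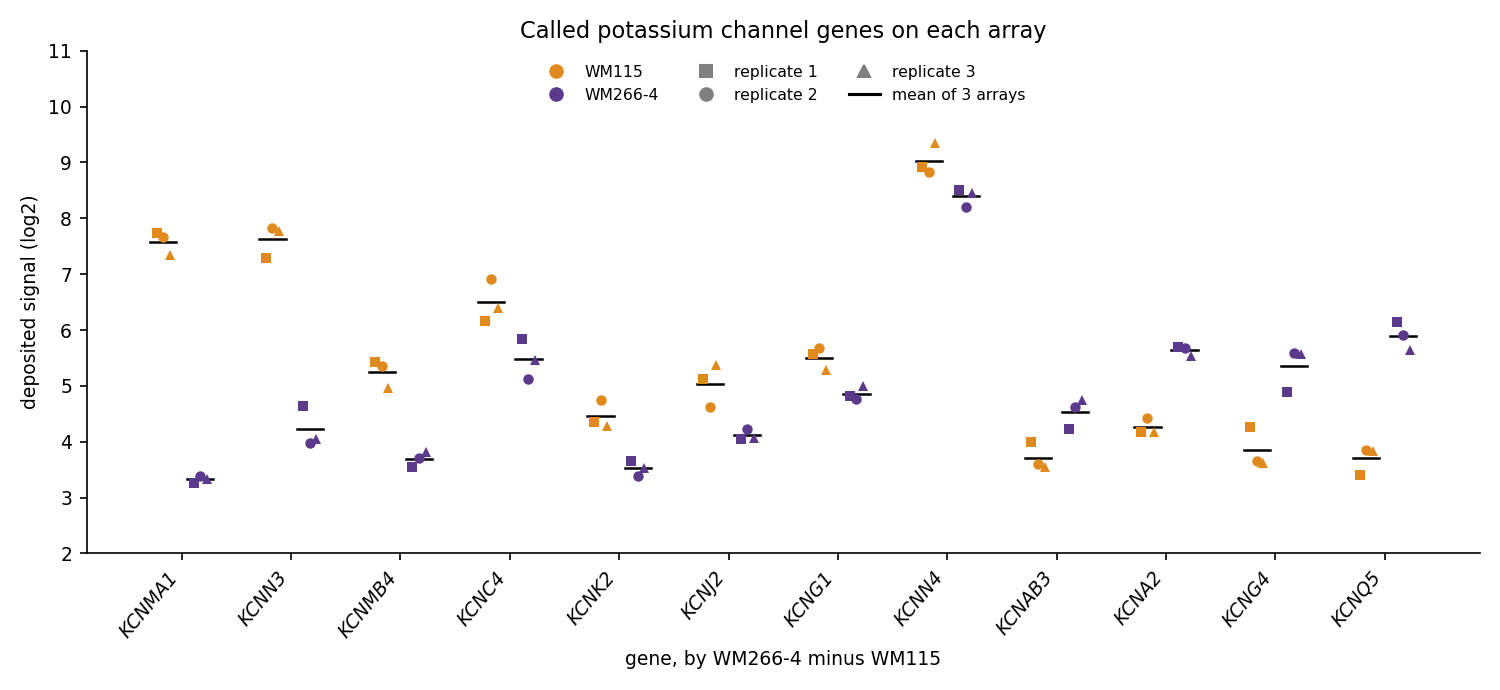
Deposited signal (log2, vertical axis) of the 12 called genes on each array, ordered along the horizontal axis by WM266-4 minus WM115. Orange points are WM115 and purple points WM266-4, the marker shape gives the replicate, and the black line is the mean of 3 arrays. In all 12 genes the arrays of the lines do not overlap, with the widest gap for KCNMA1 and narrow ones for KCNAB3, KCNG1 and KCNN4. The genes were called on these same arrays, which favours such separation, and 51.7% of all tested genes did not overlap either.

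Voltage-gated alpha subunits changed both ways. The table held 40 of them, 13 were tested, and 3 rose, 2 fell and 8 were not called. That is 38.5% called, beside 26.9% of all tested genes. KCNQ5 (chr6:72622064-73198853), which encodes the Kv7.5 channel of the slow M-type current, rose most. It read 3.41, 3.86 and 3.84 in WM115 and 6.15, 5.90 and 5.64 in WM266-4, without overlap. The difference was 2.20 (SE 0.19, interval 1.74 to 2.65, adjusted p = 0.0012). The WM115 mean of 3.70 lay under the level required for testing, so no fold is given. KCNQ1 and KCNQ3, of the same subfamily, were too dim to be tested, with differences of -0.08 and -0.32.

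KCNA2 (chr1:110593580-110631440), which encodes the Kv1.2 channel of axons and other cells, rose with little spread between arrays. It read 4.18, 4.42 and 4.18 in WM115 and 5.69, 5.69 and 5.53 in WM266-4. The difference was 1.38 (SE 0.12, interval 1.09 to 1.66, adjusted p = 0.0012). None of the other 7 KCNA genes reached the level for testing. KCNAB3 (chr17:7921859-7929856), a beta subunit that binds Kv1 channels, rose too, from 3.99, 3.61 and 3.55 to 4.24, 4.62 and 4.75. Its arrays did not overlap, and the first-repeat pair differed least. The difference was 0.82 (SE 0.19, adjusted p = 0.024). This call was lost without WM115 replicate 2 (adjusted p = 0.090), WM115 replicate 3 (0.087), WM266-4 replicate 2 (0.097) or WM266-4 replicate 3 (0.088). KCNAB2, the other tested beta subunit of this type, differed by 0.22 (adjusted p = 0.18).

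Silent subunits of the KCNG and KCNS types form no channel of their own and modify Kv2 channels. KCNG4 rose and KCNG1 fell. KCNG4 (chr16:84218657-84240012), the Kv6.4 subunit, read 4.27, 3.66 and 3.61 in WM115 and 4.89, 5.60 and 5.57 in WM266-4. The arrays did not overlap, and the first-repeat pair was closer than the others. The difference was 1.5 (SE 0.27, adjusted p = 0.010), and it just missed the threshold without WM115 replicate 2 (adjusted p = 0.0502) or WM266-4 replicate 2 (0.0515). KCNG1 (chr20:51003656-51023107), the Kv6.1 subunit, went from 5.57, 5.67 and 5.28 to 4.81, 4.77 and 4.99. All WM115 arrays of KCNG1 were above all WM266-4 arrays. The difference was -0.65 (SE 0.14, adjusted p = 0.021), lost without WM115 replicate 2 (adjusted p = 0.073) or WM266-4 replicate 2 (0.093). KCNS3, the Kv9.3 subunit, had a difference of -1.28 (SE 0.41) and was not called (adjusted p = 0.061). KCNB2, a Kv2 pore gene and partner of these subunits, was too dim to be tested and differed by 0.02.

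KCNC4 (chr1:110210314-110284080), which encodes the fast-inactivating Kv3.4 channel, fell. Its arrays read 6.17, 6.92 and 6.40 in WM115 and 5.83, 5.12 and 5.47 in WM266-4, with no overlap and a wide spread within each line. The difference was -1.02 (SE 0.26, adjusted p = 0.031). It was lost without WM115 replicate 2 (adjusted p = 0.084), WM115 replicate 3 (0.087), WM266-4 replicate 2 (0.11) or WM266-4 replicate 3 (0.097). KCNC1, of the same Kv3 subfamily, differed by -0.26 and was not called (adjusted p = 0.27). KCNH1, the ether-a-go-go channel studied in melanoma, was too dim to be tested and differed by -0.21, with pairs of 0.33, -0.63 and -0.34.

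Inward rectifiers and two-pore-domain channels gave 1 call each, both lower in WM266-4. These are 50% of 2 inward rectifiers tested and 11.1% of 9 two-pore-domain genes tested, beside 26.9% of all tested genes. KCNJ2 (chr17:70169532-70180044), the Kir2.1 channel that stabilises the resting voltage, read 5.12, 4.63 and 5.37 in WM115 and 4.04, 4.23 and 4.07 in WM266-4. WM115 varied more than WM266-4, and the arrays did not overlap. The difference was -0.93 (SE 0.20, adjusted p = 0.020). It was lost without WM115 replicate 3 (adjusted p = 0.054), WM266-4 replicate 2 (0.063) or WM266-4 replicate 3 (0.075). KCNJ4 was the other tested inward rectifier of 15 in the table and differed by 0.13 (adjusted p = 0.40).

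KCNK2 (chr1:215005542-215237090) encodes TREK-1, a leak channel opened by membrane stretch and lipids. It read 4.36, 4.75 and 4.28 in WM115 and 3.66, 3.39 and 3.54 in WM266-4, without overlap. The difference was -0.93 (SE 0.16, interval -1.32 to -0.55, adjusted p = 0.0089). Its mean over the 6 arrays, 3.99, was the lowest of the potassium channel genes tested. The other 8 tested genes of the 15 two-pore-domain genes were not called. Among them KCNK3, the TASK-1 leak channel, differed by 0.30 (adjusted p = 0.11) and KCNK6 by -0.20 (adjusted p = 0.26).

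**Figure D3:**
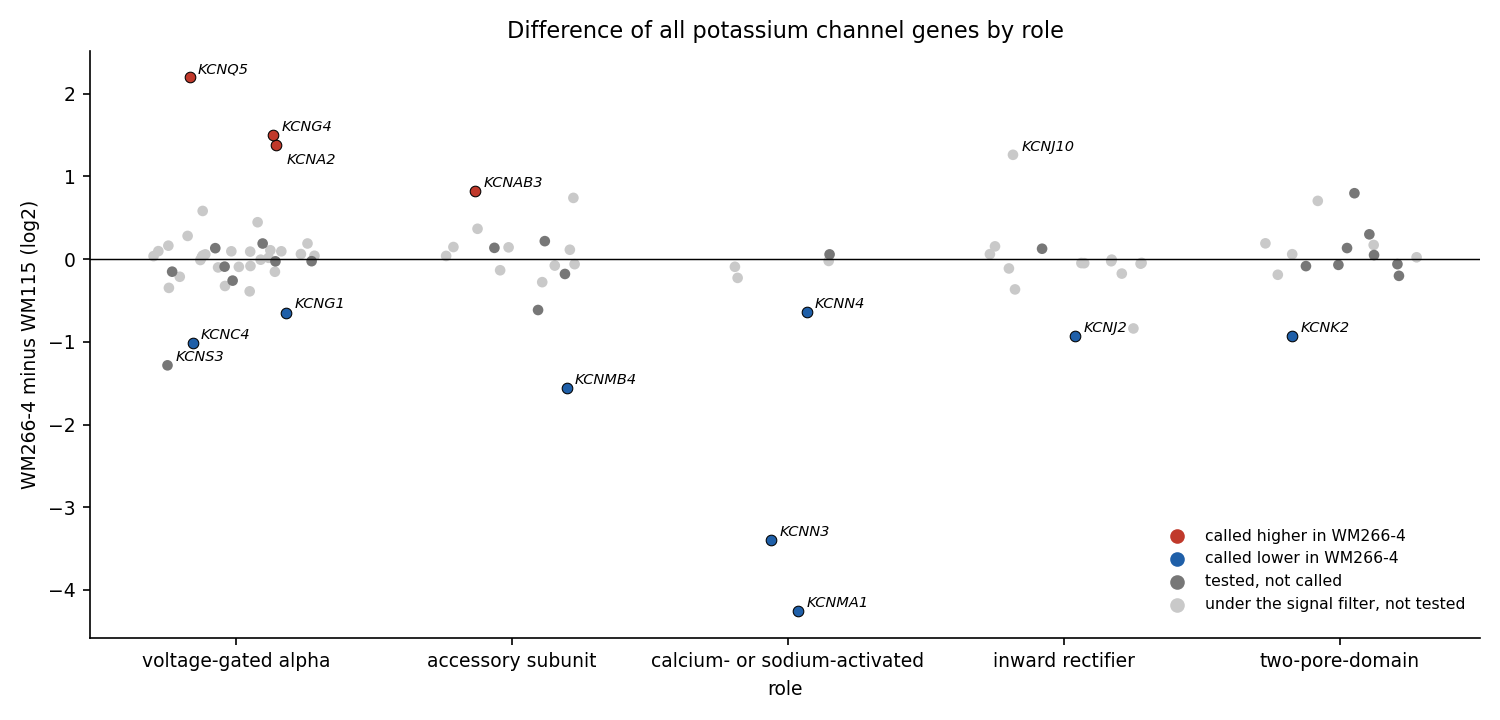
WM266-4 minus WM115 (log2, vertical axis) for all 93 genes, grouped by role along the horizontal axis. Red points rose, blue points fell, dark grey points were tested and not called, and light grey points were too dim to be tested. The calcium- or sodium-activated group holds the differences of -4.26 and -3.40, and the voltage-gated group holds 3 of the 4 genes that rose.

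Among accessory subunits 6 of 16 were tested, and 33.3% of these were called, beside 26.9% of all tested genes. KCNAB3 was up, KCNMB4 down and 4 were not called. KCNE4, an inhibitory partner of the KCNQ1 channel, was among the 4 at -0.62 (SE 0.31, adjusted p = 0.19). Its pairs gave -1.54, -0.53 and 0.23, so its arrays overlapped. KCNIP3, which binds Kv4 channels and calcium, differed by -0.18 (adjusted p = 0.25), and KCNE1, a partner of KCNQ1, by 0.14 (adjusted p = 0.64).

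The other 59 genes had mean signals from 2.47 to 3.96 and were not tested. No detection calls were used here, so a low level does not show that a channel is absent. Of these 59, 54 differed by less than 0.5, and their median absolute difference was 0.10. The filter used the mean of both lines, so 6 of the 12 called genes passed it although 1 line's mean lay under it. The dim line was WM266-4 for KCNMA1, KCNMB4 and KCNK2, and WM115 for KCNQ5, KCNAB3 and KCNG4. KCNK2 at a mean of 3.99 lay just inside and KCNG3 at 3.96 just outside. In a fit without the filter 17 of the 93 genes were called, or 18.3%, against 19.4% of all 17766 genes. The 5 added calls, named after their values were seen, were KCNRG (0.74, adjusted p = 0.027), KCNK5 (0.70, 0.034), KCNG3 (0.58, 0.036), KCNIP2 (0.37, 0.038) and KCNA4 (-0.39, 0.030). KCNRG inhibits assembly of voltage-gated channels, KCNK5 is a leak channel, KCNIP2 a Kv4 partner and KCNA4 the Kv1.4 pore.

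KCNJ10 was the single gene under the filter with an absolute difference of at least 1. It encodes Kir4.1, the channel by which glia and cells of the inner ear handle potassium. Its arrays read 2.47, 3.52 and 3.43 in WM115 and 5.06, 4.44 and 3.70 in WM266-4. The arrays did not overlap, but the pairs ranged from 2.59 to 0.27. The mean difference was 1.26 and was not called without the filter (adjusted p = 0.088). KCNJ13, the Kir7.1 channel, named after its values were seen, had pairs of -2.25, -0.22 and -0.05.

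The first repeat gave another difference than the later repeats for 4 of the 34 tested genes (11.8%), beside 5.48% of all tested genes, when limma compared the array versions. KCNS3 read 5.86, 4.79 and 4.78 in WM115 and 3.16, 4.18 and 4.24 in WM266-4. The first pair of KCNS3 differed by -2.69 and the later pairs by -0.58 on average (adjusted p = 0.0014 for the difference between versions). KCNK15, a two-pore-domain gene of the TASK group, differed by 1.85 in the first repeat and 0.27 later (adjusted p = 0.0051). Its overall difference of 0.80 was not called (adjusted p = 0.11). KCNG4 differed by 0.62 and 1.95 (adjusted p = 0.010) and KCNN3 by -2.64 and -3.78 (adjusted p = 0.021). All 4 kept one sign in all 3 pairs. On the 2.1 arrays alone KCNS3 was called at -0.58 (adjusted p = 0.0086). Array version, RNA kit and repeat cannot be told apart. With 1 first-repeat array per line, the errors of this comparison came from repeats 2 and 3 alone. They leave out the spread of first-repeat arrays, so a version change cannot be told apart from scatter of 1 array.

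**Figure D4:**
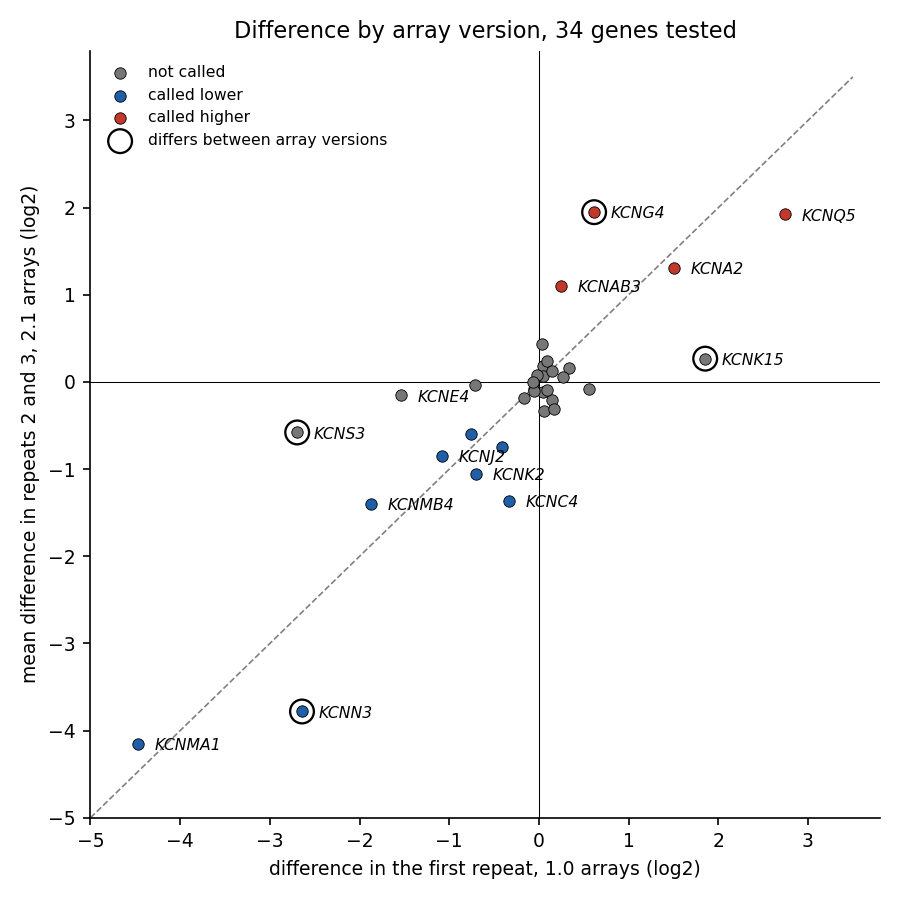
Each point is one of the 34 tested genes, with its difference in the first repeat on the horizontal axis and its mean difference in repeats 2 and 3 on the vertical axis (both log2). The dashed line marks equal values, colours give the call, and rings mark KCNS3, KCNK15, KCNG4 and KCNN3, whose difference changed between array versions. KCNMA1 lies near the line at -4.47 and -4.15.

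The 12 called genes lay on 8 chromosomes, 4 of them on chromosome 1. For each, the 10 tested genes on either side were taken from the GRCh38.p14 annotation. The median difference of these neighbours lay between -0.20 and 0.20 for all 12. KCNMA1 fell by 4.26, while its 20 neighbours had a median of 0.20, and 6 of them rose and 0 fell. KCNN3 and KCNQ5 also lay farther from 0 than all of their 20 neighbours, whose medians were -0.19 and 0.09. By contrast 5 of the 20 neighbours of KCNC4 and 5 of KCNJ2 differed by at least as much as these genes did. KCNA2 and KCNC4 were among each other's neighbours on chromosome 1 and moved in opposite directions, at 1.38 and -1.02.

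**Figure D5:**
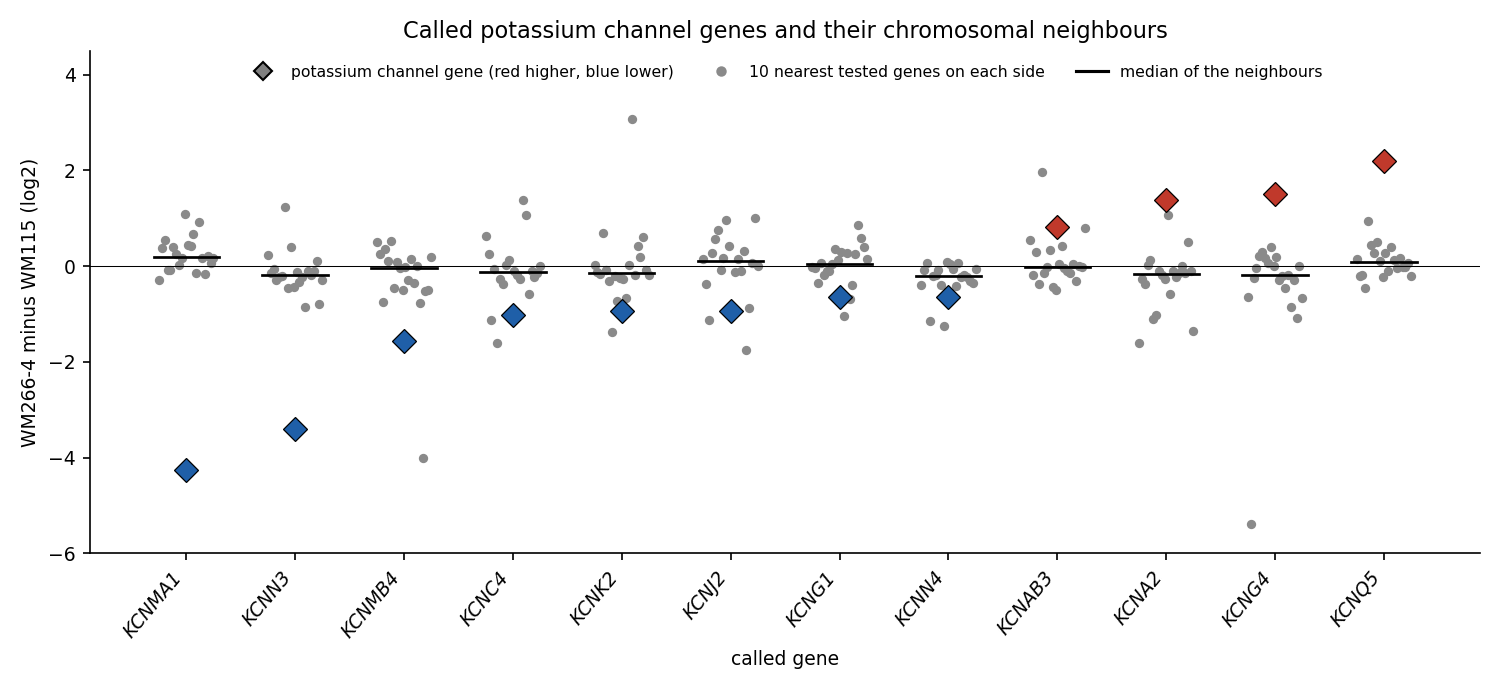
WM266-4 minus WM115 (log2, vertical axis) of the 12 called genes (diamonds) and of the 10 nearest tested genes on each side of each (grey points), with the neighbours' median as a black line. KCNMA1, KCNN3 and KCNQ5 lie farther from 0 than all of their neighbours, and every median is between -0.20 and 0.20.

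Genes that work with potassium channels or move potassium under other symbols were read from the same fit, from a list of 46 genes. The table held 44 of them and 29 were tested, and 3 rose, 6 fell and 20 were not called, which is 31.0% called, near the 26.9% of all tested genes. Their median difference was 0.02. The potassium-chloride cotransporter SLC12A4 fell (-0.54, adjusted p = 0.029), as did the intracellular cation channels TMEM38B (-0.66, 0.030) and TMEM38A (-0.61, 0.024). FXYD6, a regulator of the sodium-potassium pump, fell by 0.48 (adjusted p = 0.042).

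The pump regulators FXYD3 (1.21, adjusted p = 0.035) and FXYD5 (1.18, 0.015) rose. So did AKAP9 (0.35, 0.047), which anchors kinase to the KCNQ1 channel. FXYD3 differed by 0.13 in the first repeat and 1.75 later, and FXYD5 by 1.95 and 0.80. CALM3, a gene for calmodulin, the calcium sensor of SK channels, differed by 0.06 (adjusted p = 0.80). The 6 that fell became 1 without WM115 replicate 2, WM115 replicate 3 or WM266-4 replicate 2 and 2 without WM266-4 replicate 3. The 3 that rose became 1 without any one of these 4 arrays. FXYD5 was called in each of these fits. On the 2.1 arrays alone AKAP9 (adjusted p = 0.10), FXYD6 (0.096) and SLC12A4 (0.055) were not called.

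Markers of cell identity were checked in the same table. The melanocytic markers SOX10 (7.90 in WM115 and 8.09 in WM266-4) and S100B (9.58 and 9.72) did not pass the test. The other 5 of the 7, which were MITF, MLANA, PMEL, TYR and DCT, rose. The difference changed between array versions for S100B, MLANA, PMEL and DCT, or 57.1% of the 7, beside 5.48% of all tested genes. S100B differed by -1.17 in the first repeat and 0.81 later. The mean level of the 7 markers ranged from 4.61 to 5.30 over WM115 arrays and from 8.28 to 9.10 over WM266-4 arrays. Of the neuronal markers, SNAP25 fell from 5.97 to 3.79, MAP2 and SYP were not called and RBFOX3 was not tested. MAP2 differed by -0.75 in the first repeat and 1.93 later. The mean level of the neuronal markers ranged from 4.98 to 5.34 in WM115 and from 4.76 to 5.09 in WM266-4. All 4 leukocyte markers were too dim to be tested. Of the 5 keratinocyte markers 1 was tested and fell, and of the 3 endothelial markers 1 was tested and fell. Of the 5 fibroblast markers 4 were tested, of which 1 rose and 2 fell. The part of the melanocytic and neuronal marker shifts in the potassium channel differences was not tested. In these RNA extracts a change in the mix of cells and a change of RNA per cell cannot be told apart.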

How the data were processed

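RNA of WM115 and WM266-4 was measured on 6 arrays, 3 per line. The deposited log2 signals come from Affymetrix Expression Console and RMA, per the submitters' processing notes; versions are not given in the sources used here. RMA values are background-corrected, quantile-normalized probe signals summarised per gene. In the authors' table each gene's mean over the 1.0 arrays nearly equalled that over the 2.1 arrays (median absolute difference 0.0031, largest 0.11), which shows that the authors' values were adjusted for array version, by a method not given in the sources used here. The adjustment enters the SDs and ties the first-repeat levels of the lines together. The per-version value tables were not used because no gene name was found here for their probe sets.

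The table had 18887 rows and 17766 genes; where a symbol repeated (1121 rows), the row with the highest mean was kept. Array medians over tested genes were 6.12 to 6.18. The fit used limma 3.58.1 in R 4.3.3 with line and array version as terms (3 residual and 3.38 prior degrees of freedom), tested two-sided with Benjamini-Hochberg adjustment over 12436 genes, and was tested on simulated data. Precision is limited by the number of arrays, and no signal over background was used here. The SD over genes of the difference between a pair of arrays of one line was 0.211 to 0.309. The labels call the later repeats biological but name no separate cultures, so p-values measure the spread between these samples.

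Named genes were all called members, members with an absolute difference of at least 1 or a difference between versions, and called genes of the related list. Some genes that the rule names or the counts include are not reported here by name. Others appear as members of role groups or were named after their values were seen. The members, lists and motifs were chosen with earlier results of these data known. Alternatives changed the filter, repeated rows, normalization, prior, version term, replicate block and the arrays used.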

Additional observations from a re-analysis of the deposited data

Results flagged for a closer look

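4 tested potassium channel genes had a difference between WM266-4 and WM115 that itself changed between array versions in a limma test (adjusted p under 0.05), so each is given with the change, later repeats minus first repeat. For KCNS3 the change was 2.12 (SE 0.21), from a large decrease to a small one. For KCNK15 it was -1.59 (SE 0.21), from a large increase to a small one. For KCNG4 it was 1.33 (SE 0.21) and for KCNN3 -1.14 (SE 0.21), both toward a larger difference in the later repeats. The first repeat holds 1 array per line, so these errors come from repeats 2 and 3 alone and leave out the spread of first-repeat arrays. The cause was not tested.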

How the results depend on the processing

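No difference of a called potassium channel or related gene, KCNK15 or KCNS3 changed sign in any alternative run. Of the 12 called potassium channel genes, KCNMA1 (-4.38 to -4.15), KCNN3 (-3.78 to -3.27), KCNMB4 (-1.72 to -1.40), KCNK2 (-1.05 to -0.77), KCNA2 (1.31 to 1.47) and KCNQ5 (1.92 to 2.35) stayed called in every alternative that tested them, and the other 6 were lost in at least 1. With no filter on dim genes 8 of the 93 potassium channel genes rose and 9 fell. These are 18.3% called, against 19.4% of all 17766 genes in that fit. With the filter at the 50th percentile 10 were tested, of which 0 rose by limma (1 at an unadjusted p under 0.05) and 4 fell. KCNA2, KCNQ5, KCNG4 and KCNAB3, which rose in the main fit, were too dim to be tested there. Of 18 related genes tested at that filter 3 fell. Without an array version term 5 of the 29 related genes tested rose. Apart from the fit without the filter, the share of all genes called in the alternative fits is not given here. Leaving out single arrays gave 2 to 5 that rose and 4 to 9 that fell among potassium channel genes, and 1 to 4 and 1 to 7 among related genes. Without either replicate 1 array the 2.1 arrays alone give the difference.

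Whether replicate numbers pair the samples could not be read from these values. Deviations from the line means correlated at -0.998, -0.26 and -0.40 within replicates 1, 2 and 3, but the version adjustment leaves opposite deviations in the replicate 1 pair and so pushes the summed deviations of replicates 2 and 3 to opposite signs as well. With the replicate number as a block 3 potassium channel genes rose and 7 fell, without KCNAB3 (adjusted p = 0.056) and KCNC4 (0.069), and 1 related gene rose and 2 fell. Depth could not be assessed, since no signal over background was used.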
